A study of Mus musculus with 9 samples.

Results

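Peaks of SAFB1-associated RNA that lay just past the 3′ ends of genes were taken from the 1 deposited list of 30998 stranded peaks (mouse build mm10). A peak was counted as downstream when its midpoint lay in no GENCODE M21 gene on either strand and 1 to 10000 bases past the end of a gene on the same strand. The nearest such gene is called its upstream gene. There were 2950 downstream peaks, 9.52% of the list (95% Wilson interval 9.20 to 9.85) and 46.9% of the 6292 peaks outside genes (45.7 to 48.1). The rule used position and strand, and no measured signal.

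The series sequenced RNA recovered by immunoprecipitation (RIP-seq) from mouse embryonic stem cells, the cultured pluripotent cells of the early embryo, and its title concerns SAFB and nascent RNA. Its 9 libraries came from a CAST/B6 male line that carries a Rosa26-RMCE site, and doxycycline was given for 3 days in all of them, controls included. An antibody to SAFB1 was used on wild-type cells (3 libraries: the parent line, clone 20 and clone 44) and on cells lacking both Safb and Safb2 (2 libraries: clones 4 and 13). IgG was used on wild-type cells (2 libraries: the parent line and clone 20). A FLAG antibody was used on double-knockout clone 13 carrying an eGFP plasmid (1 library) or a SAFB1 plasmid (1 library, whose genotype label reads wild type while its title names the double-knockout clone). The list holds no value for any library. Groups could not be compared, depth is unknown, and no value has replicates, so the intervals below cover counting error only.

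SAFB1, scaffold attachment factor B, is a nuclear protein that binds RNA and chromatin. At the end of most protein-coding genes the nascent RNA carries a poly(A) signal, AATAAA or a variant of it in DNA letters, and is cleaved a short way beyond that signal. RNA polymerase II goes on transcribing past the cleavage site until termination, and the RNA made there is usually degraded in the nucleus. RNA past a gene end can also belong to a longer 3′ UTR, to readthrough into the next gene, or to a separate transcript. A peak list alone does not tell these apart, and which of them gave a peak was not tested.

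Sequence near the gene end is shown for 7 protein-coding genes with 4 downstream peaks each, chosen because a poly(A) signal was found in the last 50 bases of the transcript ending there. They are examples and not typical of the longest runs: none of the 5 genes with 5 downstream peaks had AATAAA or ATTAAA in those bases, and of the named genes with 4, neither did Cwf19l2, Gm6871, Gm47558 and Gm48373. Srfbp1, Gm13261 and Gm10062 had a signal and are not printed. Each run is a window of 30 bases of transcript sequence around the signal, 5′ to 3′ on the strand of the gene, with the signal in capitals, and it stops short of the annotated end. The window of Neo1, the receptor neogenin, is chr9:58874693-58874722 (minus strand), and that of Slc25a40, a mitochondrial carrier, is chr5:8454763-8454792 (plus strand). Both coordinates are GRCm38, the assembly that mm10 names.
Neo1: ctgggcagaggtAATAAAagaaatgtctga
Slc25a40: gtgttggtttacATTAAAatattaatatat
Cwc27: tcaaaattataaAATAAAatcattgacatt
Slmap: tgtgcatgatttAATAAAataactttaatc
Cd9: aatttgatacatAATAAAagattataacag
Ifitm1: catggtggactcAATAAAgtgcacgtgctg
Prrc2c: acactgtgctaaAATAAAacaccactgata

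Downstream peaks were densest next to the gene end and thinned out steadily with distance. The median distance from the end to the peak midpoint was 3375 bases (quartiles 1523 and 5808), 502 peaks lay within 1 kb (17.0%, 15.7 to 18.4) and 1979 within 5 kb (67.1%, 65.4 to 68.8). Per Mb of bases outside genes, there were 13.6 peaks in the first kb past the end (exact Poisson interval 12.4 to 14.8), 9.47 in the fifth kb (8.41 to 10.6) and 4.77 in the tenth (3.97 to 5.67). Beyond the window, density was 4.01 at 10 to 11 kb and 1.65 at 19 to 20 kb. Only 142 downstream peaks (4.81%, 4.10 to 5.65) reached back across the gene end.

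The excess was on the strand of the gene. On the opposite strand the density past the same ends was 5.20 per Mb in the first kb (4.49 to 5.98) and 3.53 in the tenth. Over the whole 10 kb it was 9.54 per Mb on the same strand (9.20 to 9.89, 2950 peaks) and 4.34 on the opposite strand (4.11 to 4.57, 1341 peaks). The ratio of same-strand to opposite-strand peaks was 2.20 (exact binomial interval 2.06 to 2.35). It was 2.61 in the first kb (2.21 to 3.10), 2.13 in the fifth (1.73 to 2.63) and 1.35 in the tenth (1.03 to 1.78). Over the 10 kb, 769 peaks lay past an end on each strand and are in both counts. The interval treats the counts as separate and is therefore only approximate. With such peaks left out of both counts, an alternative chosen after seeing the data, the ratio was 3.81 (3.48 to 4.19). From 10 to 20 kb the strands were level over all genes, with a ratio of 0.962 (0.872 to 1.06). This pools unlike sets of genes. At 10 to 11 kb, genes holding a peak on their own strand had 14.7 same-strand and 3.34 opposite-strand peaks per Mb. Genes holding none had 2.61 and 3.57. At 18 to 19 kb genes holding a peak still had 9.26 and 4.21, and genes holding none 2.02 and 3.16. At 19 to 20 kb these pairs were 3.03 and 6.92, and 1.48 and 3.22. The pair for genes holding a peak there rests on 7 and 16 peaks, with overlapping intervals (1.22 to 6.24 and 3.96 to 11.2).

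Regions before gene starts showed another pattern. Peaks on the strand of the gene had a density of 4.13 per Mb over the 10 kb before starts (1262 peaks), and those on the opposite strand 4.29 (1312 peaks). In the first kb before the start the opposite strand was the denser, with 8.18 peaks per Mb. Downstream peaks can also lie near other genes: 712 of the 2950 (24.1%) were within 10 kb before a same-strand start, 459 (15.6%) within 10 kb before an opposite-strand start, and 769 (26.1%) within 10 kb past an opposite-strand end. None of these applied to 1415 (48.0%, 46.2 to 49.8).

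**Figure D1:**
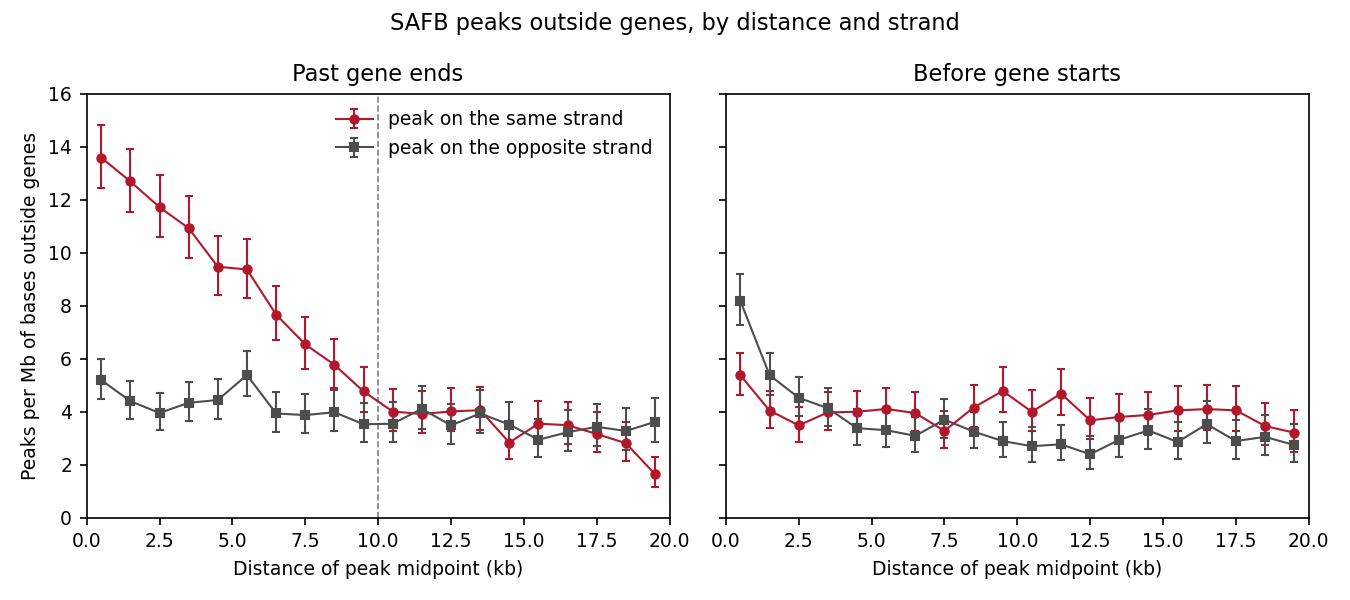
Peaks outside genes per Mb of bases outside genes (vertical axis) by distance of the midpoint in 1 kb steps (horizontal axis, kb), past gene ends on the left and before gene starts on the right; points are densities and bars 95% exact Poisson intervals. Past ends the same-strand density runs from 13.6 in the first kb to 4.77 in the tenth (dashed line, the window's edge), while the opposite strand runs from 5.20 to 3.53.

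Downstream peaks were of ordinary width. Their median was 515.5 bases (quartiles 267 and 945, range 74 to 4483), against 496 for the other 3342 peaks outside genes, 487 for the 1341 opposite-strand peaks past ends and 623 for the 24706 peaks in genes. Peaks in the first kb were the narrowest, with medians of 417.5 bases within 1 kb, 516 from 1 to 3 kb, 522 from 3 to 6 kb and 562 from 6 to 10 kb. The window's edge cut through a continuous set. It kept 127 peaks at 9 to 10 kb with a median width of 559 bases, and left out 104 at 10 to 11 kb with a median width of 552. The farthest peak inside lay at 9998 bases and the nearest outside at 10007.

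The 2950 peaks belonged to 2249 upstream genes, 5.54% of the 40580 genes that have bases outside genes within 10 kb past their end. Of the upstream genes 1716 (76.3%) had 1 downstream peak, 405 had 2, 93 had 3, 30 had 4 and 5 had 5. Upstream genes held peaks of their own more often than genes at large. A sense peak, meaning a peak on the gene's strand with its midpoint between the gene's start and end, was found in 1063 of the 2249 (47.3%, 45.2 to 49.3), against 13.6% of the 40580 genes. These sets differ in the kinds of gene they hold. Among protein-coding genes alone the contrast was smaller, 54.1% of 1713 upstream genes (51.7 to 56.5) against 25.7% of all 18622. Of the downstream peaks 1471 (49.9%) followed a gene with a sense peak and 1479 a gene without one.

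Read from the gene, 19.3% of the 5513 genes with a sense peak had a downstream peak (18.3 to 20.3), against 3.38% of the 35067 without (3.20 to 3.58). In density this was 38.0 downstream peaks per Mb (36.1 to 40.0) against 5.47 (5.19 to 5.75). On the opposite strand the same ends had 7.54 and 3.88 peaks per Mb, so the sets of genes differed on both strands and more on the same strand. Behind genes with a sense peak, density was 44.6 per Mb in the first kb (39.0 to 50.9), 49.9 in the second, 18.7 in the tenth and 14.7 at 10 to 11 kb. Behind genes without one it was 8.73 in the first kb (7.73 to 9.82) and 2.93 in the tenth.

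**Figure D2:**
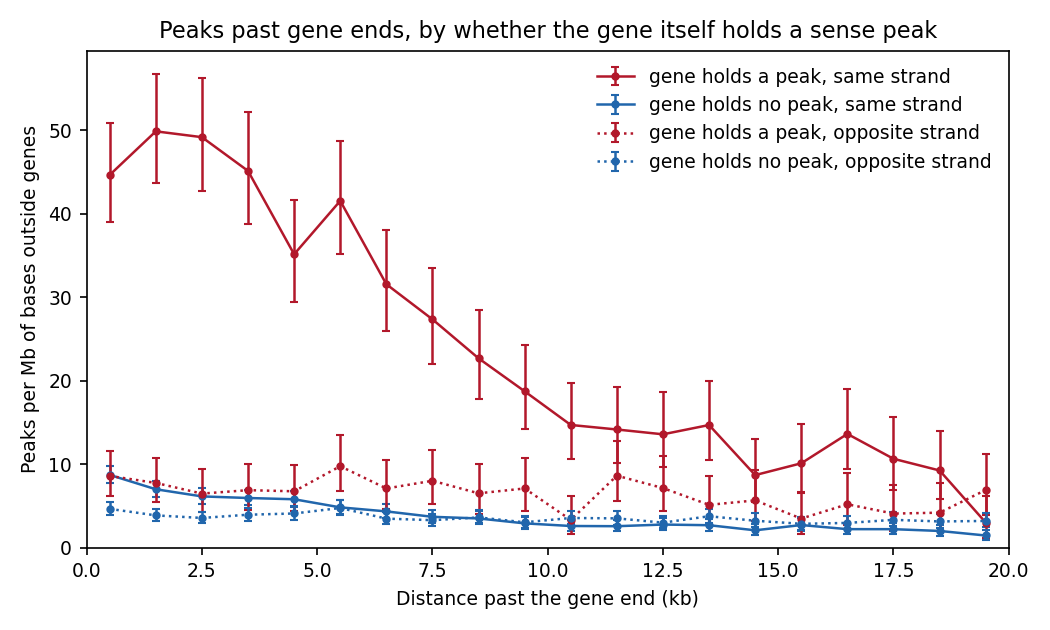
Peaks per Mb of bases outside genes (vertical axis) by distance past the gene end (horizontal axis, kb), for genes that hold a sense peak (red) and genes that hold none (blue), on the same strand (solid) and the opposite strand (dotted); bars are 95% exact Poisson intervals. The same-strand density behind genes with a peak starts at 44.6 and is still 14.7 at 10 to 11 kb, while the blue solid line starts at 8.73.

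Distance and width of the downstream peak did not separate the genes with and without sense peaks. The median distance was 3361 bases where the gene held a peak and 3393 where it did not, and the median width 522 and 511 bases. Gene length did differ: upstream genes with a sense peak had a median length of 56.0 kb and those without 10.8 kb. Genes with a sense peak and no downstream peak had a median of 45.4 kb. The list holds no expression values, and the part of expression in these shares was not tested.

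Within classes of length the difference was still there. Among protein-coding genes (9.2% of 18622 had a downstream peak, and 25.7% a sense peak), the share with a downstream peak at 1 to 10 kb of length was 13.9% with a sense peak and 3.41% without. It was 15.9% and 7.33% at 10 to 30 kb, 20.7% and 9.19% at 30 to 100 kb, and 25.1% and 4.70% at 100 to 300 kb. Above 300 kb it was 10.9% (37 of 340), and 0 of 163 without a sense peak (upper limit 2.30%). The share was larger for genes with more sense peaks. Among protein-coding genes it was 5.68% with none, 17.1% with 1, 20.0% with 2 to 4, 23.2% with 5 to 9 and 27.0% with 10 or more (22.5 to 32.1). On the opposite strand the same classes ranged from 2.97% to 4.96%, with no such order.

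**Figure D3:**
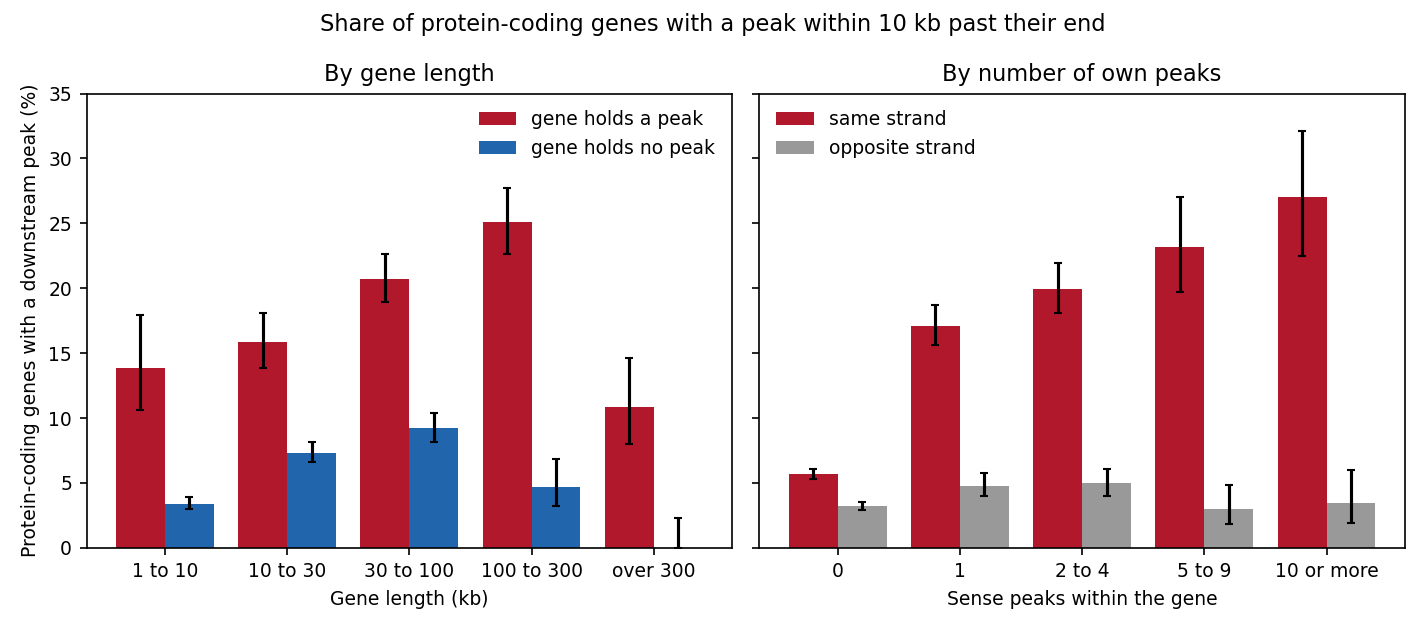
Share of protein-coding genes (vertical axis, percent) with at least 1 peak within 10 kb past the end, by gene length in kb on the left, for genes with and without a sense peak, and by number of sense peaks on the right, for the same and the opposite strand; bars carry 95% Wilson intervals. On the right the same-strand share goes from 5.68% to 27.0%, while the opposite-strand share stays at or below 4.96%.

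Up to 100 kb, the distance from the gene's last sense peak to its end made little difference to how often a downstream peak was found. The share of genes with a downstream peak was 20.6% where the last sense peak was within 1 kb of the end, 19.4% at 1 to 5 kb, 19.2% at 5 to 20 kb and 20.7% at 20 to 100 kb. It was lower, 5.33% (12 of 225, 3.08 to 9.09), where that peak was over 100 kb away. Only genes longer than 100 kb can have such a distance, and distance and gene length were not separated here. An exonic last peak gave 19.2% (336 of 1746) and an intronic one 19.3% (727 of 3767). The median distance from the last sense peak to the end was 10.9 kb in genes with a downstream peak and 11.3 kb in genes without.

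The peak names carry a running number, up to 173296 for plus-strand and 167023 for minus-strand peaks. A gap in these numbers counts calls left out of the list, provided that 1 number was given to each call. Consecutive downstream peaks of the same gene mostly had adjacent numbers, in 567 of 701 pairs (80.9%, 77.8 to 83.6), at a median spacing of 1684 bases between midpoints. Between a gene's last sense peak and its first downstream peak, no number was missing in 166 of 1063 genes (15.6%), and the median was 5 missing. With the last sense peak within 5 kb of the end, none was missing in 158 of 336 (47.0%). Adjacent numbers were about as frequent elsewhere. With the upstream neighbour up to 5 kb away, no number was missing for 78.3% of downstream peaks (75.5 to 80.8), 76.1% of other peaks outside genes and 74.2% of peaks in genes.

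Some upstream genes had peaks past the window as well. A further same-strand peak at 10 to 20 kb was found for 228 of 1621 upstream genes with bases outside genes there (14.1%, 12.5 to 15.8), against 367 of 26308 genes without a downstream peak (1.40%, 1.26 to 1.54).

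The longest runs, of 5 peaks each, followed 5 genes. D430020J02Rik, a non-coding gene on chromosome 12 with 1 sense peak, had midpoints at 407, 1962, 5578, 7957 and 9849 bases past its end, and the 5 call numbers were consecutive. These peaks cover 5747 bases, and the widest, of 2629 bases, spans chr12:116392676-116395304 (mm10). Lsm6, which encodes a subunit of the LSm ring of the U6 snRNP, held 4 sense peaks and had downstream midpoints at 898, 5801, 6812, 7928 and 8855 bases. 1700056N10Rik, a non-coding gene on chromosome 16 with 1 sense peak, had its 5 peaks within 4914 bases of the end.

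Gm40040 on chromosome 3 held 3 sense peaks in 4.82 kb and had downstream midpoints from 655 to 9510 bases, the first of them inside the longer RefSeq model of the gene. It is part of a dense stretch, picked out after its values were seen. From the Gm40040 gene to the last peak past Gm25487, a snoRNA gene (chr3:41431869-41482391, minus strand, mm10), 25 peaks covered 40.3% of 50.5 kb, with 2 peaks on the plus strand. Gm14406 on chromosome 2 held no sense peak. Of its 5 downstream peaks, at 235 to 9852 bases, 4 lay inside its RefSeq model. Gm14406 and Gm6871 carry model names, and whether they share reads with related copies is not known from the list, so their peaks are uncertain.

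Of the genes with 4 downstream peaks, Neo1 held 4 sense peaks and had downstream midpoints at 1249, 4127, 7019 and 8882 bases, all before the next gene, a convergent one 11511 bases past the end. Cwc27, a cyclophilin-type protein of the spliceosome, held 11 sense peaks and had downstream midpoints from 814 to 9490 bases. Slmap, a sarcolemma-associated membrane protein, held 2 sense peaks, and its downstream midpoints began only at 4586 bases and ended at 9203. The farthest of these lay in a separate RefSeq gene of unlisted strand, Gm34223. Cwf19l2, whose product is related to a yeast splicing factor, held 5 sense peaks, with downstream midpoints from 2623 to 7544 bases. In Neo1, Cwc27, Slmap and Cwf19l2 the 4 call numbers were consecutive.

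Other genes had 4 downstream peaks and no sense peak within their GENCODE bounds. Slc25a40 (31.9 kb long) had midpoints at 2831, 6757, 8400 and 9969 bases. Cd9, a tetraspanin of the cell surface, had midpoints at 1481, 2459, 3062 and 4949 bases, and the 4 peaks lie within a RefSeq gene on the other strand. Ifitm1, an interferon-induced membrane protein of early germ cells, is 2.61 kb long and had midpoints at 2548, 3062, 4097 and 8167 bases. Prrc2c, a large proline-rich protein, spans 69.8 kb with no sense peak and had downstream peaks 75 to 868 bases wide, from 3074 to 6894 bases. The farthest of these lay in another RefSeq gene on the same strand. Srfbp1, a serum response factor-binding protein, had midpoints from 2218 to 7053 bases. Gm13261, a non-coding gene on chromosome 2, had them from 2611 to 9978 bases, all inside the RefSeq model of the gene. Gm48373, a processed pseudogene, Gm47558, a gene model of class TEC, which awaits experimental evidence, and Gm6871 also had 4 each without a sense peak, and the non-coding Gm10062 had 4 with 1 sense peak. The nearest peak of Gm6871, at 146 bases, lay inside its RefSeq model.

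**Figure D4:**
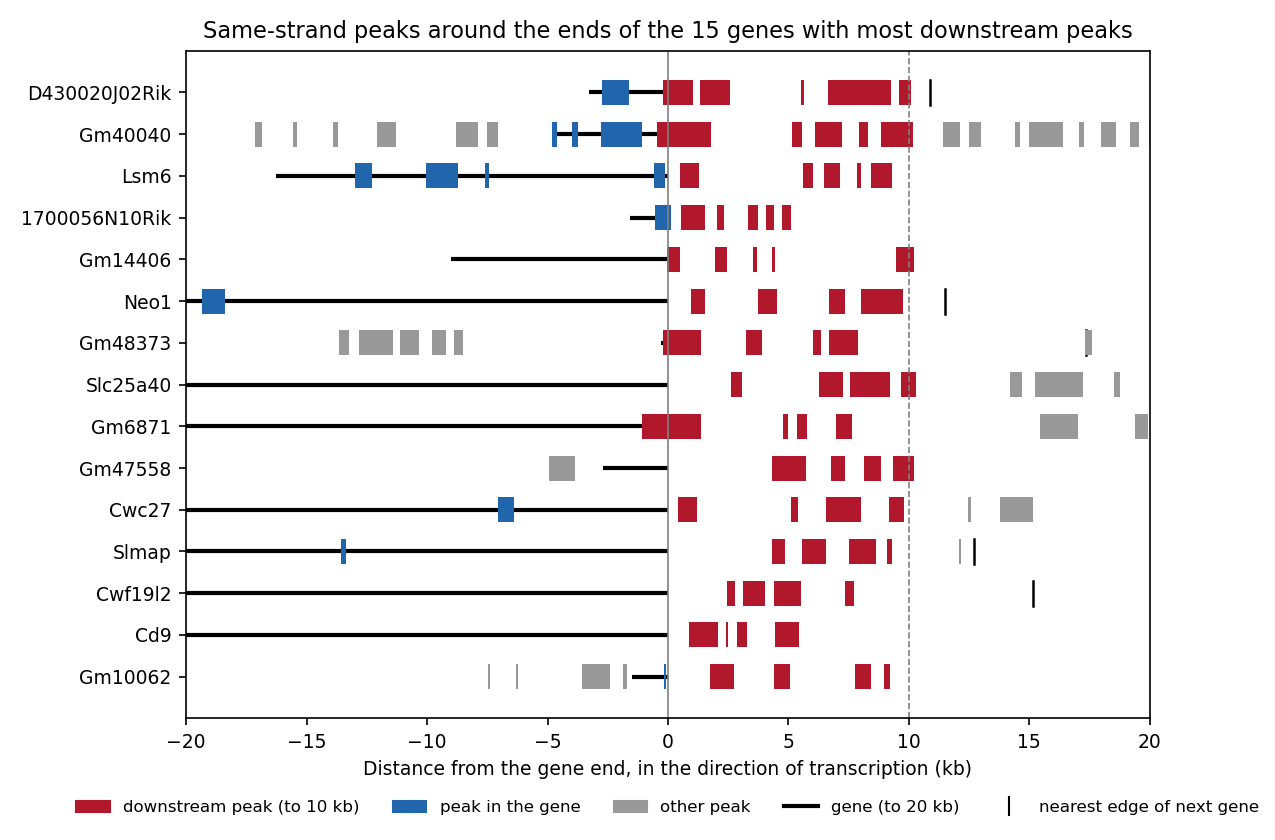
Same-strand peaks from 20 kb before to 20 kb past the ends of the 15 genes with most downstream peaks (horizontal axis, kb from the end in the direction of transcription; 1 row per gene). Boxes are peaks to scale, black bars the genes, vertical ticks the nearest edge of the next gene, and the dashed line the 10 kb limit; the 5 genes at the top have 5 downstream peaks and the rest 4.

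The peaks nearest to a gene end had midpoints within 28 bases of it. The nearest lay 1 base past Emd, which encodes emerin of the inner nuclear membrane. That peak was 1152 bases wide, reached back into the gene and lay by its midpoint in the longer RefSeq model of Emd. Gm7285 and Mir320 followed at 2 bases, C230037L18Rik and Gm49739 at 10, Platr30 at 13 and Sema5b, a semaphorin, at 16. Pde3b, a phosphodiesterase, followed at 19, Bmp8a, a bone morphogenetic protein, at 26 and Cklf, a chemokine-like factor, at 28. Bmp8a had a second downstream peak at 1277 bases and Cklf one at 726. Both Cklf peaks and the Gm7285 peak also lay by their midpoints in the RefSeq model of the gene.

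The widest downstream peaks were 2870 to 4483 bases. The widest of all followed Mir673 (chr12:109572318-109576800, plus strand, mm10) and lay by its midpoint in Rtl1, a RefSeq gene on the other strand. The next, of 4425 bases, began inside the protein-coding gene Gm19426 and ran past its end. Ankrd28, an ankyrin-repeat subunit of protein phosphatase 6, had 1 of 3737 bases centred 6165 bases past the end, and 2700038G22Rik had 1 of 3446 bases. Psma8, a proteasome subunit of the germ line, held 9 sense peaks and had 1 downstream peak of 3205 bases. Atp2a2, the calcium pump SERCA2, had 1 of 3155 bases at 2030 bases past the end. Gm49312, Gm25487, Zfp148 and Eri1, an exonuclease that trims histone mRNA and 5.8S rRNA, completed the 10 widest.

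Protein-coding genes accounted for 2270 of the downstream peaks (76.9%, 75.4 to 78.4) and 1713 of the upstream genes. Long non-coding genes gave 335 peaks (11.4%), pseudogenes 186 (6.31%), small RNA and other genes 84 (2.85%) and TEC models 75 (2.54%). Per Mb outside genes, the same-strand density was 17.8 past protein-coding genes (17.1 to 18.5), 8.05 past TEC models, 5.84 past long non-coding genes (5.23 to 6.50), 3.46 past small RNA genes and 2.05 past pseudogenes (1.77 to 2.37). On the opposite strand these were 6.15, 4.40, 3.64, 3.21 and 2.51. Pseudogenes as a whole had no excess on their own strand, but the 173 that held a sense peak had 22.1 downstream peaks per Mb (14.8 to 31.7, 29 peaks) against 3.04 on the opposite strand (4 peaks). Long non-coding genes with a sense peak came close to protein-coding ones, with 37.9 downstream peaks per Mb (32.1 to 44.5) against 38.5 (36.5 to 40.7). Without a sense peak, long non-coding genes had 3.50 on either strand, against 10.5 on the same strand for protein-coding genes.

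Among the small RNA genes are miRNA hairpins, which the annotation lists as short genes of their own. A peak that covers a whole hairpin and runs on therefore counts as past the end of the miRNA gene, although both can lie in 1 longer primary transcript. A hairpin of the RefSeq miRNA table used here was overlapped, by at least 1 base, by 8 of the 2950 downstream peaks. The same held for 30 of the 24706 peaks in genes and 0 of the other 3342 outside genes. The GENCODE gene Mir320 (chr14:70443510-70443591) also lies whole within its downstream peak (chr14:70443403-70443783) but is not among these overlaps, so the 8 are not a full count. As hairpins are genes in the rule that chose these peaks, the numbers are a description only. Mature sequences from hairpins under these peaks are given from RefSeq (GRCm38.p6), with the seed, bases 2 to 8, in capitals. They were chosen after the overlaps were seen.
mmu-miR-130a-3p: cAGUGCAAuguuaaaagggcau
mmu-miR-363-3p: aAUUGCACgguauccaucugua
mmu-miR-379-5p: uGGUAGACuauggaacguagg
mmu-miR-411-5p: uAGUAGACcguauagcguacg
mmu-miR-379-3p: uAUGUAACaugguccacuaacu
mmu-miR-411-3p: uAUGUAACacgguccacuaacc
mmu-miR-299a-5p: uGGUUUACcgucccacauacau
mmu-miR-495-3p: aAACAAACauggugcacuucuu
mmu-miR-674-5p: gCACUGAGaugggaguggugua
mmu-miR-425-5p: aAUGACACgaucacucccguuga

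Of these, miR-379-3p and miR-411-3p share the seed AUGUAAC. Mir379, Mir411 and Mir299a lie whole within 1 peak of 2557 bases (chr12:109708795-109711351, plus strand, mm10), and Mir495 lies whole within another of 1393 bases on the same chromosome. They belong to the large miRNA cluster of the imprinted Dlk1-Dio3 domain, which is transcribed from the maternal chromosome. From the Mir673 gene to the peak past Mir495, a stretch of 148 kb also picked out after its values were seen, there were 14 plus-strand peaks covering 14.7% of the bases, of which 6 were downstream peaks past 5 small genes. The minus strand had 4 peaks there. The 4425-base peak past Gm19426 holds Mir130a whole. A peak of 1512 bases on chromosome 2 holds Mir296 and Mir298, 1 of 1254 bases holds Mir674, and 1 of 1245 bases, centred 76 bases past 4833445I07Rik, holds Mir425. That last peak reaches back across the gene end, and Mir425 lies before the end. On the X chromosome, peaks of 390 and 168 bases overlapped Mir363 by 67 of its 75 bases, Mir18b by 29 of 83 and Mir20b by 1 of 80.

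The choice of annotation matters for some of these peaks. In RefSeq (GRCm38.p6), 2501 of the 2950 (84.8%, 83.4 to 86.0) lay in no gene either. The RefSeq model of the upstream gene itself covered the midpoints of 173 (5.86%, 5.07 to 6.77), at a median distance of 1738 bases past the GENCODE end. Another same-strand RefSeq gene covered 110, a RefSeq gene on the other strand 98, and a RefSeq gene of unlisted strand 68. The 2501 had a median distance of 3444 bases. Among protein-coding genes paired with RefSeq, the RefSeq end lay over 100 bases past the GENCODE end in 14.2% of those with a downstream peak (239 of 1688, 12.6 to 15.9), 8.72% of those without (1413 of 16209) and 10.4% of those with a sense peak and no downstream peak (396 of 3790).

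A poly(A) signal, AATAAA or ATTAAA on the transcribed strand, was present in the last 50 bases for most upstream genes. It was found in 1303 of the 1713 protein-coding upstream genes (76.1%, 74.0 to 78.0), against 72.9% of all 18621 such genes with a transcript to read. Upstream genes with a sense peak had it in 77.3% and those without in 74.6%. Genes with a sense peak and no downstream peak had it in 79.9% (3075 of 3850, 78.6 to 81.1), and genes with neither in 70.4%. Of the upstream genes with a sense peak, 63.5% carried AATAAA and 13.8% only ATTAAA. A match describes these letters and not a working site.

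The kind of neighbour made little difference to same-strand density where it was far away. With the next gene over 10 kb past the end, there were 8.34 downstream peaks per Mb where it was tandem, transcribed in the same direction (7.84 to 8.86), and 8.19 where it was convergent (7.66 to 8.74). With the next gene within 10 kb the densities were 12.8 and 14.0. The opposite strand did differ, with 1.64 and 3.50 per Mb for far neighbours and 5.82 and 13.5 for near ones. For convergent genes within 10 kb the densities on both strands were close, 14.0 (12.9 to 15.2) and 13.5 (12.4 to 14.6), as each strand lies past an end. A peak between such a pair can count as same-strand for its own gene and as opposite-strand for the partner. Their closeness therefore follows largely from the counting, and the intervals are not separate measurements.

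Some peaks lay over the start of the next gene as RefSeq gives it. A RefSeq promoter window, 250 bases before to 50 after a gene's start, was overlapped on the same strand by 44 downstream peaks (1.49%, 1.11 to 2.00), and 14 windows lay wholly under a peak. A pair of these 14 windows is shown from RefSeq (GRCm38.p6). They were chosen after their letters were seen, from the 4 windows that hold a purine-rich hexamer, and do not stand for the rest. The first is that of Zfp93, a zinc finger gene (chr7:24270168-24270467, plus strand), under a peak of 1690 bases centred 7815 bases past Zfp108. The next is that of Gm52510 (chr2:52131488-52131787, plus strand), under a peak of 1323 bases centred 9617 bases past Rif1. Capitals mark the purine-rich hexamer AGAAGA, its shifted form GAAGAA or the other shifted form AAGAAG, searched on the printed strand only, overlaps allowed.
Zfp93: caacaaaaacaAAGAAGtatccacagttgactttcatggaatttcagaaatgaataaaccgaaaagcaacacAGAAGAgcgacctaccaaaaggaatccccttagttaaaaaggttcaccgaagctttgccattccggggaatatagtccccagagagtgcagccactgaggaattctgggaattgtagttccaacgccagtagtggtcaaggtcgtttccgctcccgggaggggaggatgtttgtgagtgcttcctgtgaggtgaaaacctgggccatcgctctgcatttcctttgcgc
Gm52510: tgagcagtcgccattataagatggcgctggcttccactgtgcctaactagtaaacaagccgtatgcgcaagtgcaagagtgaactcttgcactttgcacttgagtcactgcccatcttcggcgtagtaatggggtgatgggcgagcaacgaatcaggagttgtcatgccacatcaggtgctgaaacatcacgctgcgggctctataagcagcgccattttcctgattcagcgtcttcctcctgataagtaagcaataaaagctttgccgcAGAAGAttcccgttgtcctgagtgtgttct

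At least 1 of the hexamers was in 4 of the 14 whole windows (28.6%, 11.7 to 54.6), against 25.0% of all 32851 RefSeq promoter windows. Purines, A or G, made up a median of 50.8% of the 14 windows (range 39.0 to 56.7) and 50.3% of all windows. The interval is too wide to show a difference at 14 windows.

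Gene lists that fit these cells were described by how many members had a downstream peak, beside 9.2% of all protein-coding genes. Pluripotency factors had the highest share of the 11 lists, with 11 of 28 (39.3%, 23.6 to 57.6) and 14 peaks in all. A sense peak was held by 8 of the 28 (28.6%), near the 25.7% of all protein-coding genes. Zfp42, which encodes the stem cell marker REX1, had downstream peaks at 381 and 7609 bases. Klf5, a transcription factor of self-renewal, had them at 3241 and 6496 bases, and Tet1, which oxidises 5-methylcytosine, at 2880 and 3989. Dppa4, a chromatin-associated developmental pluripotency factor, held no sense peak and had 1 downstream peak of 2707 bases at 8782 bases. On the opposite strand, 4 of the 28 had a peak, against 3.55% of all protein-coding genes, so these genes were above the background on both strands. These genes are highly expressed in stem cells as a matter of background, and the part of expression in the count was not tested.

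Genes of RNA 3′ end processing and termination had a downstream peak in 6 of 25 (24.0%, 11.5 to 43.4), and 9 held a sense peak. Papolg, a poly(A) polymerase, had them at 3705 and 5442 bases, and Ints9, an Integrator subunit, at 3591 and 5217 with 7 sense peaks. Both Ints9 downstream peaks lay in a separate RefSeq gene of unlisted strand, Gm52118. Wdr33, a poly(A) signal-binding factor, had 1 at 8816 bases, and Zfc3h1, of the exosome-targeting PAXT connection, 1 at 5005. RNA polymerase II subunits and elongation factors had 1 of 29 (3.45%, 0.611 to 17.2), Cdc73 of the PAF complex, with peaks at 2527 and 3505 bases.

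Chromatin regulators had 7 of 35 (20.0%, 10.0 to 35.9), and 15 held a sense peak (42.9%). Their median length was 67.6 kb. Of all protein-coding genes 30 to 100 kb long, 14.0% had a downstream peak and 41.7% a sense peak, so the interval includes the share of genes of such length. Rif1, a replication timing and telomere protein, held no sense peak and had downstream peaks at 5840 and 9617 bases, and Arid2, of the PBAF complex, held 5 and had them at 488 and 1474. Bptf, of the NURF remodeller, had them at 920 and 1725 bases, and Arid1b, of the BAF complex, held 10 sense peaks and had 1 at 2489. Zinc finger proteins with Zfp names had 77 of 337 (22.8%, 18.7 to 27.6) with 106 peaks, and 166 held a sense peak. Zfp428 had 4 downstream peaks, from 1562 to 7550 bases, and Zfp970, Zfp931 and Zfp326 had 3 each. Many zinc finger genes lie in clusters of related copies, where reads can be shared.

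Ribosomal protein genes, which are short and highly transcribed, had peaks past the end more often than inside. Their median length, 3.23 kb, was shorter than the 10 kb window past the end. A downstream peak followed 12 of 72 (16.7%, 9.80 to 26.9) while 3 held a sense peak (4.17%), and none had both. Among all protein-coding genes 1 to 10 kb long, 4.01% had a downstream peak and 5.68% a sense peak. Their share with a sense peak was thus near that of other short genes. Rpl6 had 3 downstream peaks, from 4256 to 7452 bases, and Rps6 had 2 at 2647 and 3211. On the opposite strand 1 of the 72 had a peak, against 3.55% of all protein-coding genes. Replication-dependent histone genes, whose mRNA ends in a stem-loop without a poly(A) tail, had 2 of 61 (3.28%, 0.904 to 11.2), Hist1h2ah with 2 peaks and Hist1h4j with 1.

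Nuclear and imprinted long non-coding RNAs had sense peaks in 15 of 20 and downstream peaks in 3 (15.0%, 5.24 to 36.0). Of all long non-coding genes, 7.30% held a sense peak and 3.59% had a downstream peak. Those 3 were Nespas at 4170 bases, Tsix, the antisense partner of Xist, at 518, and Firre, an X-linked nuclear RNA, at 960. The Firre peak, 110 bases wide, lay in a RefSeq gene on the other strand, Gm35612. The 3 SAFB family genes each held a sense peak and none had a downstream peak. Of the markers of other cells that such a culture can hold, fibroblast markers had 0 of 18 (upper limit of the Wilson interval 17.6%) with 5 holding a sense peak. Primitive endoderm markers had 1 of 14, Lama1, a laminin chain, at 1127 bases, and 7 held a sense peak. The part of other cells in the list was not tested.

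**Figure D5:**
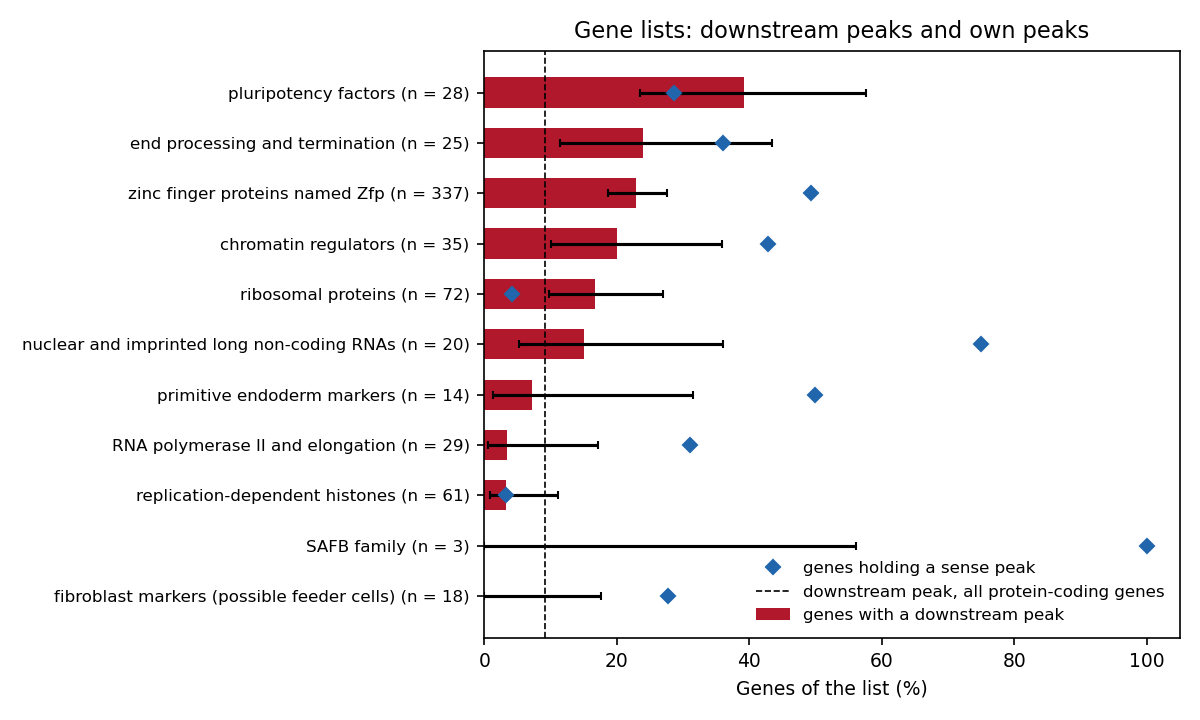
Share of each list's genes (horizontal axis, percent; n is the number of genes with bases outside genes past the end) that had a downstream peak (red bars with 95% Wilson intervals) or held a sense peak (blue diamonds), with all protein-coding genes as the dashed line at 9.2%. Pluripotency factors and ribosomal protein genes have more genes with a downstream peak than with a sense peak, and the non-coding RNAs 15 of 20 with a sense peak.

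Downstream peaks were found on each autosome, at 7.06 per Mb outside genes on chromosome 7 (6.03 to 8.20) up to 14.1 on chromosome 8 (12.1 to 16.4). The X chromosome had 98 downstream peaks, or 5.23 per Mb (4.24 to 6.37), and the Y chromosome had 1. The plus strand held 1512 of the 2950 (51.3%). In all, downstream peaks covered 1986 kb.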

How the data were processed

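RNA was recovered by RIP-seq from 9 libraries in 5 groups, sequenced after removal of ribosomal RNA, per the labels' protocols. The authors deposited 1 peak list for the series, with 6 columns. The score the authors deposited is 500 in each peak and was not used. The submitters' processing notes name mm10, STAR, Subread and featureCounts, with no versions. How peaks were called, pooled or filtered is not given in the sources used here. With no value per library, the list allowed no test and no depth, and shares carry 95% Wilson intervals, densities exact Poisson intervals and ratios exact binomial intervals, all for counting error.

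Start coordinates were read as BED, counting from 0. Genes came from GENCODE M21 (55450 genes). Each base outside genes was assigned to the nearest same-strand gene end or start, and densities count peaks over these bases in 1 kb steps. Ends were compared with RefSeq through Ensembl identifiers, then symbols (98.5% of protein-coding upstream genes paired). Positions were tested on simulated data. Python 3.11.15, numpy 2.4.6, pandas 2.3.3, scipy 1.17.1 and matplotlib 3.10.9 were used.

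Named genes are the 15 with most downstream peaks, the 10 with most among genes without a sense peak, the 5 non-coding ones with most, the 10 nearest and the 10 widest peaks, and up to 4 of each list, with ties broken by total width. A few list genes under this rule are not reported here. The members, lists and rules were chosen with earlier results of these data known. Alternatives changed the gene set, the window, the overlap rule, the peak width and neighbouring genes.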

Additional observations from a re-analysis of the deposited data

How the results depend on the processing

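For 12 results under 9 alternatives, 67 of the 108 values stayed within the counting interval or set range of the main one, and the strand ratio was above 1 in each. With protein-coding upstream genes only, 7.58% of all peaks were downstream, 14.8% of these in the first kb, the strand ratio was 2.90, 53.9% of upstream genes held a sense peak, and 100% were protein-coding by construction. Without pseudogenes the ratio was 2.47, the share with a sense peak 49.5% and the protein-coding share 81.7%. A 5 kb window gave 6.38% of peaks, a median distance of 2136 bases, 25.4% in the first kb, a ratio of 2.62, 30 genes with at least 3 peaks, 91.6% of consecutive peaks with no call left out and a poly(A) signal in 73.7%. A 20 kb window gave 12.1%, 4628.5 bases, 13.4%, a ratio of 1.73, 44.4% with a sense peak, 236 genes with at least 3 peaks, 73.2% protein-coding and 70.6% with no call left out. With whole peaks outside genes these were 8.81% of peaks, 3581.5 bases, 13.0% in the first kb and a median width of 486 bases. Keeping peaks no narrower than the list's median left 1310 downstream peaks (8.45%) past 1177 genes, at a median of 3608.5 bases and a width of 1003.5, with 15.3% in the first kb, 39.7% of genes with a sense peak, 12 genes with at least 3 peaks and 69.2% with no call left out. Without peaks within 5 kb before a same-strand start, 8.24% of peaks were downstream. In 2 alternatives chosen after seeing the data, peaks past ends on 1 strand only gave 7.04% and a ratio of 3.81, and leaving out small RNA and TEC genes gave 49.4% with a sense peak and 81.1% protein-coding. The causes were not tested, beyond what each alternative changes by its own construction.

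No paired analysis was possible because the 1 deposited list holds no values per library, and no library was left out for the same reason. Depth is unknown, so a gene without a peak is one where no peak was listed, and not one shown to lack SAFB1-associated RNA. The downstream set depends on GENCODE M21: RefSeq models of the upstream gene cover 173 of its 2950 peaks.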
